A study of Rattus norvegicus with 9 samples.

Results

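Emp1, Emp2, Emp3 and Pmp22 encode the epithelial membrane proteins and peripheral myelin protein 22, a family of small tetraspan membrane proteins related to the claudins. The set was chosen by the measured values of Emp1, which was near the top of the genes higher in MSC-perfused kidneys, and Emp2, Emp3 and Pmp22 were added as its relatives. They are 4 of 26115 gene names on the array, read by 4 of 30367 gene probes, 1 for each gene. All 4 probes passed the filter on dim signals, so that the family makes up 4 of the 13836 genes tested.

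Proteins of this family sit in the plasma membrane with both ends in the cytoplasm and take part in cell contacts, in membrane blebbing and in the delivery of integrins to the cell surface. Emp1 is known from epithelia and from squamous differentiation. Emp2 controls the surface level of integrins and of caveolae, and inherited loss of Emp2 in people causes a nephrotic syndrome. Emp3 is abundant in leucocytes and fibroblasts, and Pmp22 is a component of the compact myelin made by Schwann cells, also found in fibroblasts and epithelia.

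Kidneys were taken from Fisher F344 rats, whose age is not given in the sources used here. Each array measured the RNA of 1 kidney. NP kidneys (n = 5) had 20 min. of warm ischaemia and no perfusion. MSC kidneys (n = 4) had the same ischaemia and were then perfused for 4 hrs at 4°C with Belzer solution (BS) that contained 3000000 bone marrow MSC (mesenchymal stromal cells) of EGFP transgenic Sprague Dawley rats. The titles given by the submitters name a perfusion with BS for the control kidneys too, while their treatment field and the paper's methods call these kidneys not perfused, and the latter is followed here. A further MSC array, discarded by the authors for its quality, was not analysed here. As no kidney perfused with BS alone was on these arrays, the effects of perfusion, cold, time and MSC cannot be told apart. Cells of the perfusate are rat cells as well, so that their RNA would be read by the same probes, and in whole tissue fewer cells of a type and less RNA per cell cannot be told apart.

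On the arrays 65.6% to 74.3% of the gene spots were well above background and none was saturated. NP replicates 1, 2 and 3 and MSC replicates 1 and 2 were on slide 1, the others on slide 2. The labelled tissue was borne out by its markers, since all 9 genes of a list for tubule and glomerulus (such as Lrp2, Umod, Aqp2 and Nphs1) were well above background on all 9 arrays. NP replicate 2 had the highest summed level of 4 of 11 marker lists (fibroblasts and pericytes, smooth muscle, injured tubule, MSC). MSC replicates 3 and 4 had the highest level of fat genes.

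The probes are shown because each gene rests on 1 of them, so that their place on the transcript is all that is known of which part of the messenger RNA was read. They have 60 bases, and for 3 of them 30 bases are printed, 5′ to 3′, in the sense of the transcript. Capitals mark AATAAA, the hexamer that directs cleavage and polyadenylation of a messenger RNA, which Pmp22 holds in 2 overlapping copies.
Emp1: atttctctagtgtattatgtttaagggaat
Emp2: gtttgtcatttgAATAAAaattattttggg
Emp3: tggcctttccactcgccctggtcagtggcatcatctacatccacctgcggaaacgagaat
Pmp22: tgttattactacAATAAATAAAtctcaaag
The hexamer AATAAA, searched on the strand of the transcript alone, was in the whole probes of Emp2 and Pmp22 and not in those of Emp1 and Emp3, and was in 8.39% of the 30367 gene probes. The probe of Emp3, printed whole, has no stop codon in any of its 3 reading frames. In Emp1 and Pmp22 each frame is closed by a stop codon, and in Emp2 1 frame is open.

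The files place the probes on the rat build rn4. The probe of Emp1 is A_44_P807058 (chr4:172335129-172335188, plus strand) and starts at base 2246 of the transcript. For Emp2 it is A_43_P13924 (chr10:5347960-5348019, plus strand, base 3051), for Emp3 A_42_P517399 (chr1:96389823-96389882, minus strand, base 628) and for Pmp22 A_44_P353515 (chr10:49335537-49335596, plus strand, base 1488). An annotation of exons and UTRs on this build was not used here. In the current RefSeq table the accessions of all 4 probes still carry the same symbols.

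Emp1 was higher in each MSC kidney than in each NP kidney. Its normalized log2 intensity was 10.97, 11.20, 10.90, 11.38 and 11.39 in NP replicates 1 to 5 and 12.19, 12.51, 12.18 and 11.76 in MSC replicates 1 to 4. The groups did not overlap, with a gap of 0.38 between the highest NP and the lowest MSC kidney. The MSC mean was 12.16 ± 0.30 (SD, n = 4) and the NP mean 11.17 ± 0.23 (SD, n = 5), which is a log2 difference of 0.99 (standard error 0.16) and a fold change of 1.99. These values chose the set, so that they are given as a description with no test.

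In the comparison over all genes Emp1 had rank 3 of 13836 by p-value and rank 31 by the signed log2 difference from the highest down, and 0.983% of the genes were higher in MSC samples by over 1.5 times, as Emp1 was. Its neighbours in the order by p-value among genes higher in MSC samples were Calb1, just above it, with a log2 difference of 1.13 (standard error 0.16), and Cd151, just below it, with 0.49 (standard error 0.09). A gene was called when limma gave it an FDR below 0.05 together with a change of more than 1.5 times. This held for 0 genes higher and 0 genes lower in MSC samples, 0% of those tested, and so for 0 of the 4 members. The paper reported Tmem52b and Calb1 as higher in MSC kidneys at the same thresholds. In the main comparison here neither was called. At an unadjusted p under 0.05 limma gave 909 genes higher (6.57%) and 706 lower (5.1%). A weight for each array brought 2 genes past both thresholds, Calb1 and Tmem52b, and not Emp1. Each MSC array was above each NP array for 438 genes, or 3.17% of those tested, and Emp1 was the only one of the 4 family members among them.

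**Figure D1:**
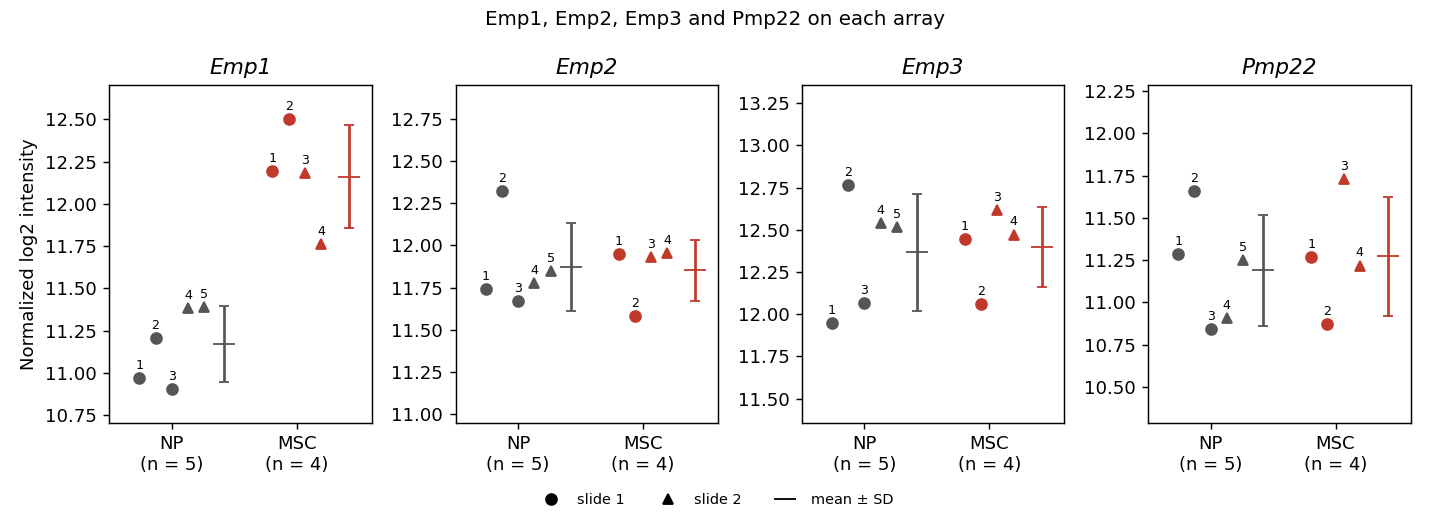
Normalized log2 intensity (vertical axis, the same span of 2 log2 units in each panel) of the 4 family members in NP (grey, n = 5) and MSC (red, n = 4) kidneys. Each point is an array with its replicate number, circles are slide 1 and triangles slide 2, and the bars are the mean ± SD. The MSC points of Emp1 lie above all its NP points, while the groups of Emp2, Emp3 and Pmp22 overlap.

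The separation of Emp1 was seen on both slides. On slide 1 the log2 difference was 1.32 and the lowest MSC kidney was 0.99 above the highest NP kidney. On slide 2 the difference was 0.59 and the lowest MSC kidney was 0.38 above the highest NP kidney. NP replicates 4 and 5, on slide 2, were the highest of their group and MSC replicate 4, also on slide 2, the lowest of its group.

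The signal of Emp1 was well measured. Its probe is spotted in 2 places, all 18 spots over the 9 arrays were well above background, and the spots of an array differed by at most 0.27 on the log2 scale. The raw intensity of the spots ran from 1395 to 6789, against a median of 217 to 237 for the negative controls of an array. The raw intensity of MSC replicate 4, at 2432 and 2350, was on both spots below that of 3 of 5 NP kidneys, replicate 1 at 2478 and 2562, replicate 4 at 3135 and 2787 and replicate 5 at 3840 and 3459, and came above them only after normalization. MSC replicate 4 also had the lowest share of gene spots well above background (65.6%) and the most outlier spots (593) of the 9 arrays. The whole array was dimmer, with a median gene spot of 577 against 702, 777 and 895 on the arrays of these 3 NP kidneys. The order of these kidneys therefore rests on the scaling of the arrays. The lowest MSC array was 0.36 above the highest NP array with quantile normalization, 0.38 with 75th percentile scaling and only 0.025 with median scaling.

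Emp2, Emp3 and Pmp22 had no difference between the groups that exceeded the spread between replicates, and all 3 had overlapping groups. Their own values did not choose the set, although the set was chosen with results of these arrays known. For Emp2 the log2 intensity was 11.74, 12.32, 11.67, 11.78 and 11.85 in NP replicates 1 to 5 and 11.95, 11.58, 11.93 and 11.95 in MSC replicates 1 to 4. NP replicate 2 was highest and MSC replicate 2 lowest of all kidneys. The means were 11.85 ± 0.18 (SD, n = 4) and 11.87 ± 0.26 (SD, n = 5), a log2 difference of -0.017 (standard error 0.14, FDR 0.972 from limma). The 95% interval of the fold change ran from 0.792 to 1.23, which does not reach the 1.5-fold threshold on either side. The exact two-sided permutation test over the 126 splits of the arrays gave p = 0.937.

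Emp3 had a log2 intensity of 11.95, 12.77, 12.07, 12.54 and 12.51 in NP replicates 1 to 5 and of 12.44, 12.06, 12.62 and 12.47 in MSC replicates 1 to 4. All 4 MSC kidneys lay within the range of the NP kidneys. The means were 12.40 ± 0.24 (SD, n = 4) and 12.37 ± 0.35 (SD, n = 5), with a log2 difference of 0.031 (standard error 0.18, FDR 0.962 from limma) and an interval of the fold change from 0.772 to 1.35. The exact two-sided permutation test gave p = 0.881.

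Pmp22 was at 11.28, 11.66, 10.84, 10.91 and 11.25 in NP replicates 1 to 5 and at 11.27, 10.87, 11.73 and 11.22 in MSC replicates 1 to 4. MSC replicate 3 was above all NP kidneys and the other 3 were within their range. The means were 11.27 ± 0.35 (SD, n = 4) and 11.19 ± 0.33 (SD, n = 5), a log2 difference of 0.083 (standard error 0.20, FDR 0.900 from limma) with an interval of the fold change from 0.777 to 1.44. The exact two-sided permutation test gave p = 0.762. The 2 spots of Pmp22 differed by up to 0.41 on the log2 scale, more than the difference between the groups. Within slides the log2 differences were -0.19 and 0.39 for Pmp22, -0.14 and 0.13 for Emp2 and -0.0088 and 0.019 for Emp3 on slide 1 and slide 2.

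**Figure D2:**
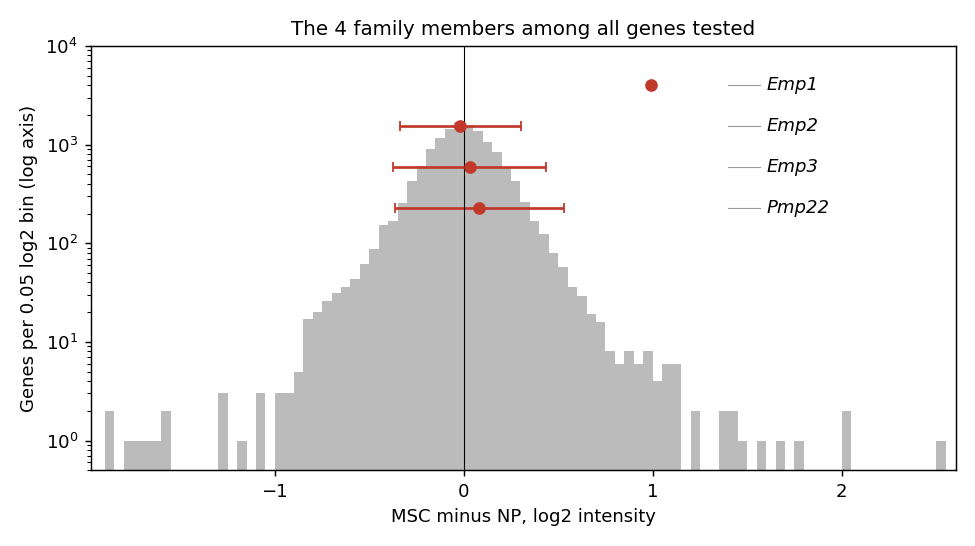
Histogram of the log2 difference MSC minus NP (horizontal axis) over the 13836 genes tested, with the number of genes per bin on a log axis. Red points are the 4 family members, with bars for the 95% intervals of Emp2, Emp3 and Pmp22, at heights chosen only to keep them apart. Emp1 lies at 0.99 in the right tail, and the intervals of Emp2, Emp3 and Pmp22 include 0.

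Among the other 3 members, Emp2 varied with Emp3 and with Pmp22 from kidney to kidney by Pearson's r, and neither pair passed by ranks. Pearson's r over the 9 arrays was 0.808 for Emp2 with Emp3 (exact permutation p = 0.00451, adjusted over the 3 pairs 0.0135), 0.777 for Emp2 with Pmp22 (exact permutation p = 0.00996, adjusted 0.0149) and 0.617 for Emp3 with Pmp22 (exact permutation p = 0.0788, adjusted 0.0788). Spearman's rho was 0.683, 0.617 and 0.467, with exact permutation p of 0.0503, 0.0857 and 0.213 and adjusted values of 0.129, 0.129 and 0.213, and no pair passed. How often other pairs of genes reach such values on these arrays was not examined. The values therefore do not show a relation particular to the family. Without the 2 arrays farthest from the median of the first gene of each pair, r was 0.730, 0.652 and 0.760 over 7 arrays. NP replicate 2 was high and MSC replicate 2 low in all 3 genes, and without NP replicate 2 r was 0.776, 0.718 and 0.484. Emp1, whose values fall into the 2 groups, was highest in MSC replicate 2, where the other 3 were the lowest of the MSC kidneys. Its relation to them was not tested.

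Over the 9 arrays the named gene most like Emp1 was Hprt1, which encodes a purine salvage enzyme often used as a reference gene, with r = 0.95 and a log2 difference of 0.23 (standard error 0.07). Probes A_43_P13862 and A_64_P127107, which carry no gene symbol in the files, were closer still, with r = 0.973 and 0.963 and log2 differences of 0.27 and 0.28. After each group was set to its own mean, r was 0.729 for Hprt1 and 0.848 and 0.814 for these probes. The genes most like Emp2 were Chsy1, Lhfp and Hsdl1 (r = 0.957, 0.957 and 0.952), for Emp3 they were Wipf1, Dchs1 and Csf1 (r = 0.976, 0.954 and 0.954), and for Pmp22 they were Rtn1, Atp1b2 and Rtfdc1 (r = 0.915, 0.890 and 0.886). Without NP replicate 2 the values of Emp2 fell to between 0.868 and 0.882. These are the highest of 13834 correlations for each gene and are a description only.

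Relatives, partners and regulators of the family were listed from what is known of it, 33 genes in all. Of these 18 passed the filter and 8 had a higher mean in MSC samples, where 48.5% of all genes did. With limma 0 of the 18 passed the thresholds in either direction, against 0% of all genes. For 0 of the 18 were all MSC arrays above all NP arrays (3.17% of all genes) or below them (2.12%). The median log2 difference was -0.17 for relatives outside the claudins, 0.0046 for binding partners and 0.011 for transcriptional regulators, beside -0.0059 for all genes.

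Among the relatives 7 of 19 were tested. Gsg1 had a log2 difference of -0.61 (standard error 0.23, FDR 0.383 from limma), with 3 of 4 MSC kidneys below all NP kidneys, and Cldnd1 of -0.38 (standard error 0.14, FDR 0.378 from limma), with 2 of 4. Perp, a desmosomal protein induced by p53, had a difference of 0.040 (standard error 0.08). The difference was 0.036 for Tmem114, -0.10 for Nkg7, a protein of cytotoxic granules, and -0.17 for Tmem204, with standard errors of 0.12, 0.15 and 0.30. Tmem47, a protein of cell junctions, had a difference of -0.45 (standard error 0.66), with NP kidneys from 10.43 in replicate 1 to 14.67 in replicate 2. Without NP replicate 2, left out after its value was seen, the difference of the means was 0.067, of the opposite sign. Lim2, a protein of lens fibres, Tmem235 and 5 of the 8 Cacng genes, which encode subunits of calcium channels and glutamate receptors, were not well above background on any array.

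Of the binding partners 8 of 9 were tested, the exception being the ATP-gated channel P2rx7, which was not well above background on any array. Cav1, the coat protein of caveolae, had the largest difference of these partners, 0.62 (standard error 0.19, FDR 0.333 from limma). The MSC mean of Cav1 was 12.56 ± 0.38 (SD, n = 4) and the NP mean 11.94 ± 0.28 (SD, n = 5), with 2 of 4 MSC kidneys above all NP kidneys. These were MSC replicates 3 and 4, at 12.97 and 12.79, which also had the highest level of fat genes. MSC replicates 1 and 2, at 12.22 and 12.24, were within the NP range. The part of fat in the values of Cav1 was not tested. The integrin chains Itgb1, Itgb4 and Itga6 differed by 0.025, -0.021 and -0.35, with standard errors of 0.29, 0.12 and 0.36. The focal adhesion kinase Ptk2 differed by -0.016, the tight junction scaffold Tjp1 by -0.13, the chaperone calnexin, Canx, by 0.20 and the Golgi retrieval receptor Rer1 by 0.11, all with FDR values over the threshold in limma.

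Of 5 transcriptional regulators known to act on Pmp22, 3 were tested. Egr2, which drives myelin genes in Schwann cells, differed by 0.34 (standard error 0.32), Yap1 by -0.23 (standard error 0.14) and its paralogue Wwtr1 by 0.011 (standard error 0.09), while Sox10 and Tead1 did not pass the filter.

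**Figure D3:**
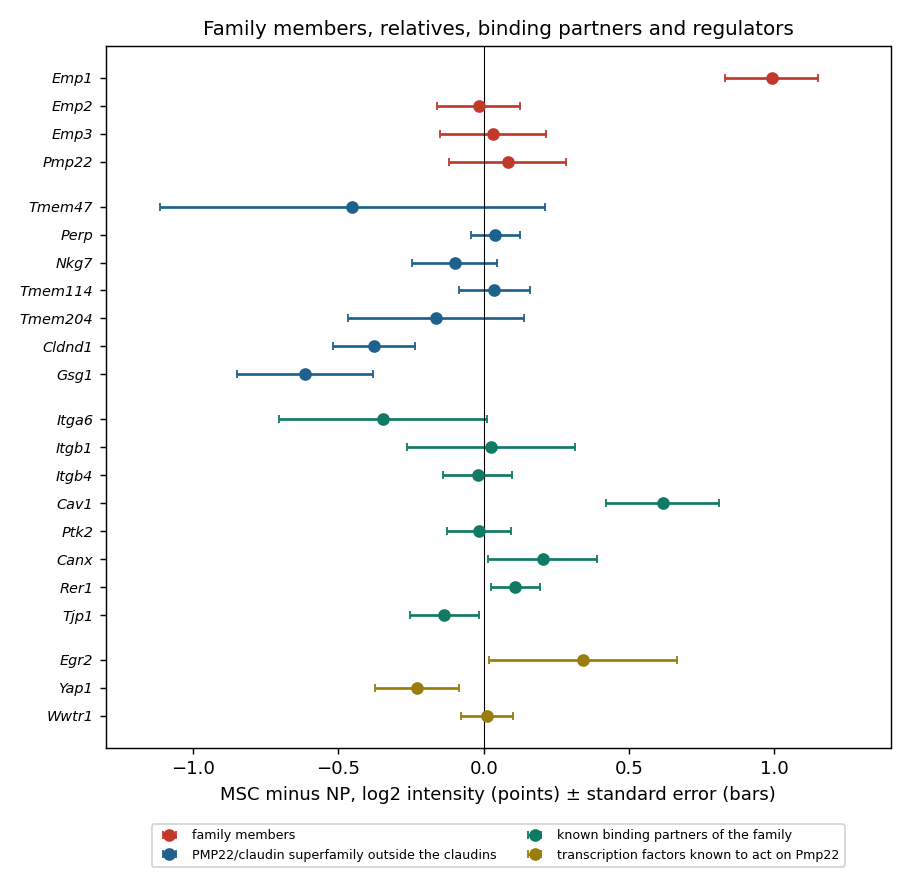
Log2 difference MSC minus NP (points) with its standard error (bars) for the 4 family members (red) and for the 18 tested genes among relatives (blue), binding partners (green) and transcriptional regulators (ochre). Emp1 at 0.99, Cav1 at 0.62 and Gsg1 at -0.61 lie farthest from 0.

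**Figure D4:**
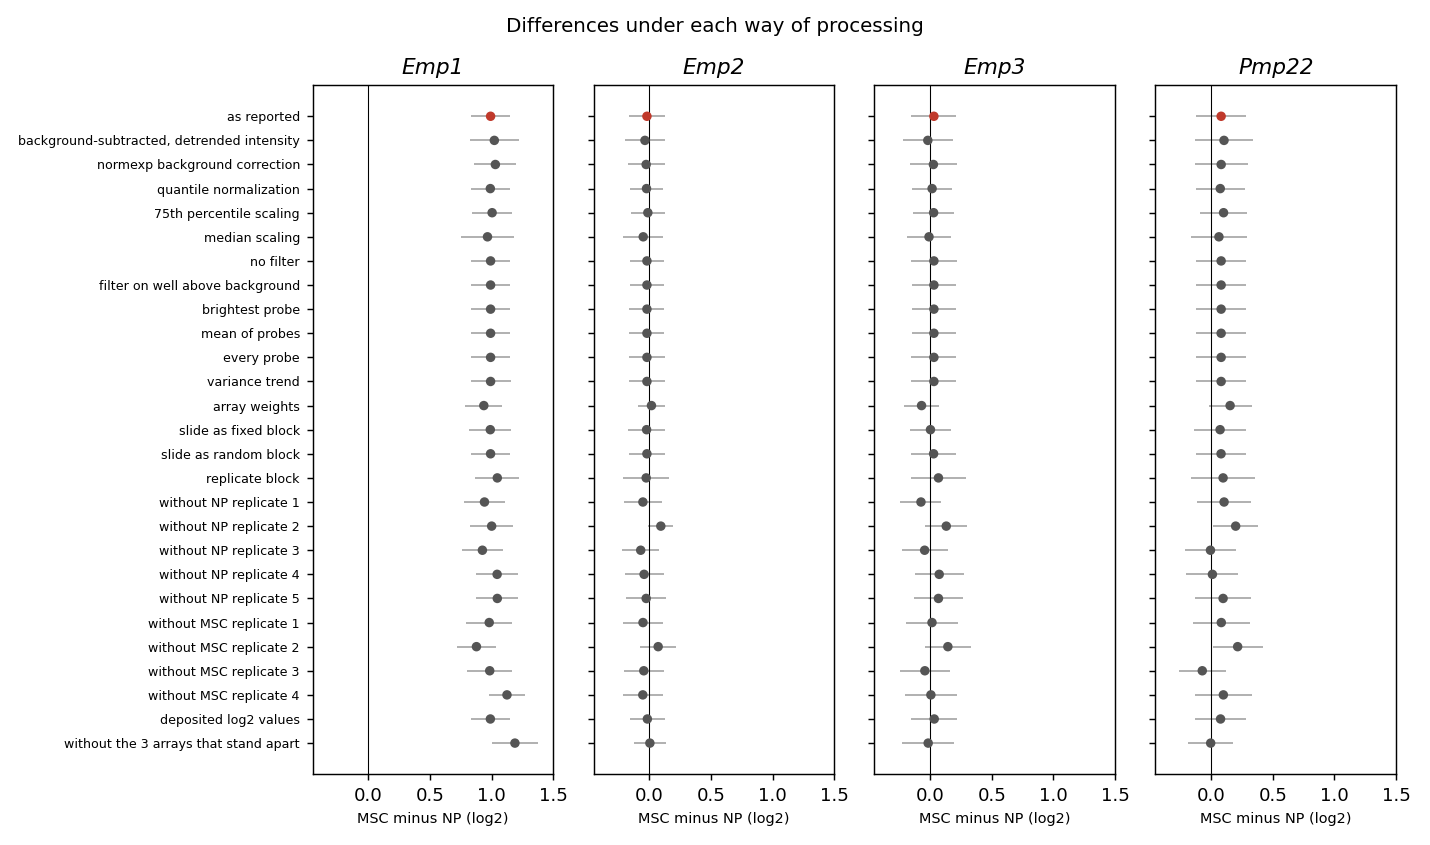
Log2 difference MSC minus NP (points) with its standard error (bars) of the 4 family members as reported (red) and under each of 26 alternative ways of processing or sets of arrays (grey). Emp1 stays between 0.88 and 1.19, while Emp2, Emp3 and Pmp22 lie on both sides of 0.

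Markers of cell types that may carry the family were set beside these values. Of 11 lists, 0 had summed levels that were higher, or lower, on all MSC than on all NP arrays. Fat genes were summed to 4909 to 8807 intensity units on the NP arrays and to 5410, 8856, 51873 and 23967 on MSC replicates 1 to 4 (4 of 6 genes tested, leptin, Lep, not well above background on any array). Peripheral nerve genes ranged from 1423 to 1843 on NP and from 1835 to 3171 on MSC arrays (3 of 7 tested). Fibroblast and pericyte genes ranged from 29968 to 95714 on NP and from 42887 to 84362 on MSC arrays (6 of 7 tested), with the highest value in NP replicate 2, where Emp2 and Emp3 were also highest. Their part in the values of Emp2, Emp3 and Pmp22 was not tested.

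The other lists overlapped as well. Endothelial genes ranged from 85044 to 140677 on NP and from 80365 to 147473 on MSC arrays (5 of 6 tested), leucocyte genes from 92040 to 149978 and from 114584 to 165015 (6 of 6), smooth muscle genes from 5568 to 14973 and from 6438 to 10027 (4 of 5) and urothelial genes from 3056 to 6292 and from 2119 to 12015 (4 of 6, with Upk3b not well above background on any array). Genes of injured tubules ranged from 49764 to 72297 on NP and from 55088 to 68562 on MSC arrays (6 of 7), and those of tubule and glomerulus from 867134 to 1211444 and from 1085569 to 1452938 (9 of 9). Immediate early genes, which respond within minutes to stress, ranged from 143493 to 378661 and from 187484 to 402955 (8 of 8). They were higher on all arrays of slide 2 than on all arrays of slide 1. Of the MSC list 3 of 5 genes were tested, with sums of 6402 to 13447 on NP and 9128 to 10277 on MSC arrays, and the surface markers Itga5 (CD49e) and Thy1 (CD90) did not pass the filter. The part of these lists in the values of Emp1 was not tested.

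**Figure D5:**
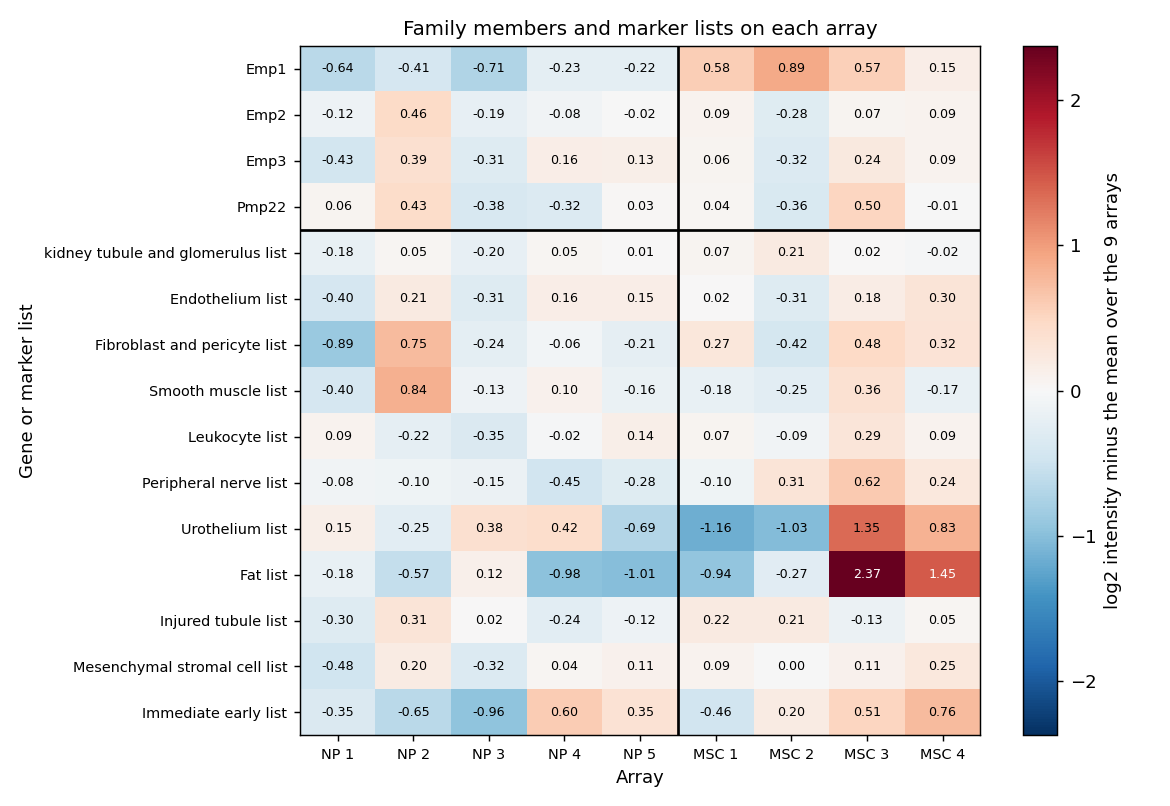
Deviation from the mean over the 9 arrays (log2 intensity) of the 4 family members (upper rows) and of 11 marker lists (lower rows, mean over the tested genes of a list) on each array (columns). Emp1 is above its mean on all 4 MSC arrays and below it on all 5 NP arrays, and no marker list shows the same split.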

How the data were processed

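Raw intensity values of each spot, and their background-subtracted and detrended form, were deposited by the authors as the output of Agilent Feature Extraction for arrays of 1 colour (Cy3), with coordinates on rn4. The deposited log2 values had been normalized between arrays by the authors with limma. The scanner's flags for spots above background, saturated or outlying are marks of 0 or 1, in no unit, set in the deposited files. Unused columns of sample values numbered 0.

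Mean pixel intensities were log2 transformed and normalized by cyclic loess in limma 3.58.1 (R 4.3.3, data.table version 1.17.8), without background subtraction. Over 15722 probes they correlated with the deposited values of the same array at 0.99987 to 0.99997 (Pearson's r). Outlier spots (273 to 593 per array) were left out. Spots had to exceed, on the log2 scale and on at least 4 arrays, the negative controls' 95th percentile multiplied by 1.1, which left 15722 of 30367 probes. Values were averaged over the spots of a probe, and each of 13836 genes was represented by its most variable probe. The groups were compared in limma (lmFit and eBayes), and FDR values are Benjamini-Hochberg values over all genes. A list's summed level is the sum of normalized intensities of its tested genes. The number of arrays limits the precision.

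The 4 genes, the lists, the thresholds and the tests were chosen with earlier results of these data known. The genes named are the family, all tested genes of the 3 lists of relatives, partners and transcriptional regulators, the 3 genes most like each member, and defining markers of the marker lists. Untested genes of the lists are named as such, and Calb1, Cd151 and Tmem52b were chosen after their values were seen. The steps were tested on simulated arrays. Alternatives changed the intensity column, scaling, filter, choice of probe, variance model or block, used the deposited values, or left out arrays.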

Additional observations from a re-analysis of the deposited data

Results flagged for a closer look

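Dixon's ratio divides the distance of an extreme array from the next one by the spread of the whole group. It was computed for the 4 family members and the 14 gene lists in both groups, 36 groups in all. It passed the critical value (0.829 for 4 arrays and 0.71 for 5) in 3 of them, where 1.8 are expected by chance. Of the family only Emp2 was among these. Its NP replicate 2 lay apart above the other NP kidneys (ratio 0.728) and its MSC replicate 2 apart below the other MSC kidneys (ratio 0.936). Without NP replicate 2 the log2 difference of Emp2 was 0.095 and without MSC replicate 2 it was 0.074. The smooth muscle list had a ratio of 0.869 for MSC replicate 3, which was the highest of its group.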

How the results depend on the processing

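Of 26 alternatives, 25 also called 0 genes higher in MSC samples and array weights called 2, while all 26 called 0 genes lower. The log2 difference of Emp1 ranged from 0.88 to 1.19 over the 26 and from 0.88 (without MSC replicate 2) to 1.12 (without MSC replicate 4) with 1 array left out. It moved by more than the replicate spread only within slides, to 1.32 and 0.59.

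The differences of the other 3 members were close to 0 and changed sign easily, with FDR values of 0.697 to 0.999 from limma. With array weights Emp2 was at 0.019 and Emp3 at -0.069. Emp3 was at -0.018 with background-subtracted intensity and at -0.0082 with median scaling. With 1 array left out they ranged from -0.068 to 0.095 for Emp2, from -0.073 to 0.14 for Emp3 and from -0.070 to 0.22 for Pmp22. Without NP replicate 2 and MSC replicates 3 and 4, an alternative chosen after seeing the data, they were 0.0064, -0.015 and -0.0022, and Emp1 was at 1.19.

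The deviations of same-numbered NP and MSC arrays gave mixed correlations (r across genes from -0.35 to 0.32), and 2 of 4 MSC arrays correlated best with the NP array of their number. With the replicate number as a block the log2 differences were 1.05 for Emp1, -0.024 for Emp2, 0.068 for Emp3 and 0.098 for Pmp22, with 0 genes called, and no call changed.

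All spots of the 4 probes were well above background. Limits are the number of kidneys, the scaling of the arrays and, for Pmp22, the difference between its spots, and they were not ranked.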
